A study of Mus musculus with 24 samples.

Results

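Tubular injury markers are transcripts that are low in the resting nephron and rise when tubule cells are damaged, dedifferentiate or fail to repair. The 10 genes described here were chosen by symbol from general knowledge, but with earlier results of these data known: Havcr1, Lcn2, Spp1, Clu, Vcam1, Krt20, Krt18, Vim, Sox9 and Cdkn1a. They are 10 of the 55335 genes counted in whole kidney RNA of 24 mice, and all 10 were among the 16092 genes with at least 1 CPM (counts relative to the TMM-scaled library size) in at least 1 kidney, which were the genes tested.

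The study asked what becomes of the kidney when its tubule cells lose Pex5, the receptor that brings enzymes into peroxisomes. All mice were of the C57BL/6J background, carried Pex5lox/lox and drank doxycycline (DOX) for 2 weeks from 8 weeks of age, and their kidneys were taken 4 weeks later, at 14 weeks and ZT9. Male and female cKO mice (cKOm, cKOf) also carried the Pax8-rtTA and LC1 transgenes, which together drive Cre under DOX in the renal tubule. Their littermate controls (Ctrlm, Ctrlf) carried neither. Each of the 4 groups had 6 mice. By this design glomerular, vascular, stromal and immune cells were meant to keep Pex5 in every group, which was not tested in whole kidney RNA. Control mice also received DOX but had no Cre and no rtTA.

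In a healthy adult kidney most tubule cells are quiescent. After ischemia or a toxin, proximal tubule cells put Havcr1 (KIM-1) on their luminal membrane and shed it into urine, distal segments secrete Lcn2 (NGAL), and surviving cells take up Sox9, Vim and keratins as they spread and divide. Cells that do not finish repair keep Vcam1, and Cdkn1a (p21) halts the cell cycle. Spp1 (osteopontin) and Clu (clusterin) are made by normal tubules, mostly in the loop of Henle and distal nephron, and rise further with injury.

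Libraries held 19376152 to 28470831 counts on genes. The limit that 3 counts allow was 0.105 to 0.155 CPM, which covers counting error only. Pex5 itself was 54.2 ± 4.63 CPM in Ctrlm and 43.7 ± 1.94 in cKOm (mean ± SD, n = 6, log2 fold change -0.31, edgeR adjusted p = 0.0219), and 50.2 ± 6.96 in Ctrlf and 43.5 ± 3.55 in cKOf (log2 fold change -0.21, edgeR adjusted p = 0.177), counted over all its exons and all cells of the kidney. These counts do not measure the extent of deletion. The paper reports PEX5 protein as virtually absent in cKOm. In cKOf it found residual full-length mRNA and lower but detectable protein, and proposes incomplete excision there. Kidneys 1 to 4 of Ctrlm and kidney 4 of cKOm held over 400 CPM of 12 hepatocyte transcripts in sum, against 71.1 to 202 CPM in the other 19 kidneys. The male fold changes of the 10 injury markers are therefore given below also without these 5. Those of the cell type markers are given only with them. Proximal tubule, thick limb and podocyte markers were all detected in every group. As these are whole kidneys, a change in the number of cells of a type cannot be told apart from a change in RNA per cell.

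Of the 10 injury markers, Spp1 was higher in cKOm than in Ctrlm mice, a call that was lost without the hepatocyte-rich kidneys, and the other 9 did not pass in males, nor any of the 10 in females. In males 1 member was called (edgeR quasi-likelihood test, adjusted p under 0.05), where 9.05% of all tested genes were called and 4.14% were called higher and 4.9% lower. In females 0 of 10 were called by edgeR, limma-voom or DESeq2, 1 of 10 (Vcam1, lower) had an unadjusted edgeR p under 0.05, while 0.851% of all tested genes were called and 6.73% had such a p. Of the male differences 5 were positive and 5 negative, with a median log2 fold change of 0.05, against 0.01 over all tested genes. In females 5 were positive and 5 negative as well, with a median of -0.08 against 0.00. Before adjustment 4 members had a p under 0.05 in males (Spp1, Clu and Krt20 higher, Havcr1 lower), where 25.1% of all tested genes did. Krt20 reached the 1 CPM of the filter in 2 cKOm kidneys and in Ctrlf kidney 1, but in no Ctrlm kidney. On so few reads its direction in males is a description and not evidence of a rise. In neither sex did the 6 cKO and 6 Ctrl mice stand fully apart for any member, while 7.37% of tested genes did in males and 0.559% in females.

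**Figure D1:**
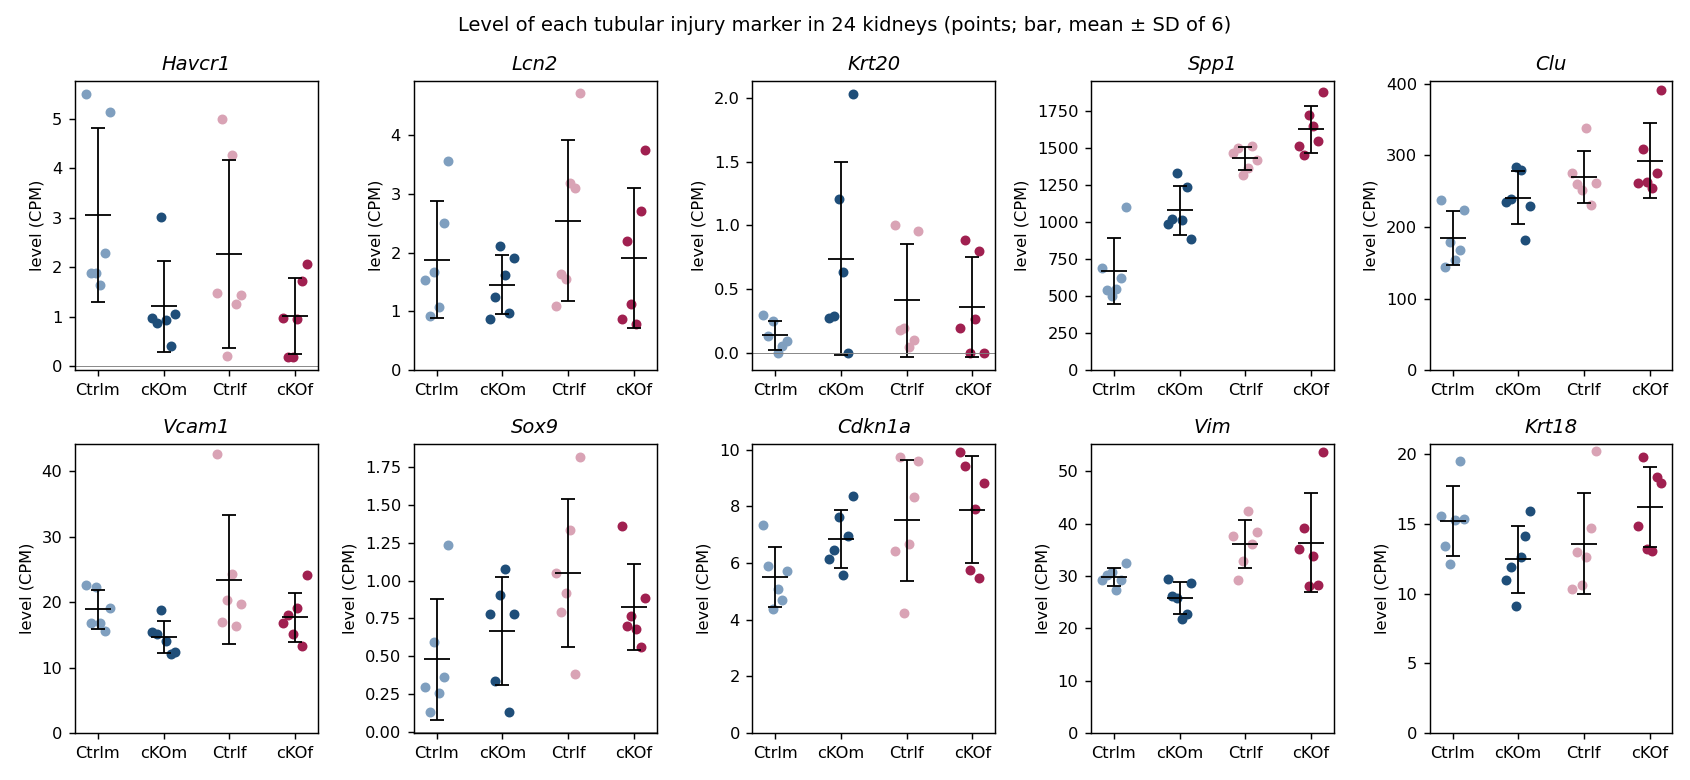
Level of each marker in CPM (linear axis from 0, a scale per gene) in the 6 kidneys of each group, with the mean and SD as a bar. Genotypes overlap in both sexes for all 10 genes, and for Spp1 all 6 Ctrlm kidneys (502 to 1104 CPM) lie below all 6 Ctrlf kidneys (1317 to 1514 CPM).

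The markers differed widely in abundance. Per kilobase of exon, the mean over the 24 kidneys was 730 CPM for Spp1, 71.9 for Clu, 10.004 for Krt18, 6.75 for Vim, 2.10 for Vcam1 and 1.95 for Cdkn1a. It was 0.815 for Havcr1, 0.742 for Lcn2, 0.213 for Krt20 and 0.183 for Sox9. Spp1, which is made constitutively by distal segments, thus stood 10.2-fold above Clu and 896-fold above Havcr1 on this scale. The transcripts best known as being switched on by damage were the rare ones. At least 1 CPM was reached in 15 of 24 kidneys for Havcr1, 19 for Lcn2, 6 for Sox9 and 2 for Krt20, against all 24 for the other 6 genes.

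Spp1, a secreted phosphoprotein that binds integrins, calcium and CD44, lies on chromosome 5 of GRCm38 from 104435118 to 104441050, on the forward strand. Because it was the 1 member that passed the test between genotypes, the 250 bases before the first of its 2 RefSeq start sites (GRCm38.p6, chr5:104434861-104435110, forward strand) are shown, with the matches to short motifs in capitals:

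Spp1 promoter: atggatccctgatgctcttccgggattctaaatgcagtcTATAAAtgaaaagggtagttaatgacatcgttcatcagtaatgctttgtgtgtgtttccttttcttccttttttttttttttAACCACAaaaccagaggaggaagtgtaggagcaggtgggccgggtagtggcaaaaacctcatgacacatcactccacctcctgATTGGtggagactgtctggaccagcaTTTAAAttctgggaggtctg

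Motifs were searched on both strands, and positions count back from the start site. The TATA-like element TTTAAA filled positions -20 to -15 and occurs in 12.1% of all 32851 promoters of the RefSeq table. The TATA-like element TATAAA filled -211 to -206 and occurs in 12.4% of promoters. The CCAAT box, read on the other strand, filled -46 to -42 and occurs in 33.8%. The element AACCACA, the core bound by RUNX proteins, filled -129 to -123 and occurs in 4.40%. The AP-1 element TGANTCA, which 6.75% of promoters hold, was not among these letters. No match overlapped another. At the second RefSeq start site of Spp1, 104436192, none of these motifs was found. A match describes the letters and is no evidence of binding. Of the 10 members, 7 had a promoter in the table, which left out Clu, Vcam1 and Sox9.

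Spp1 was 502 CPM in the lowest, 589 in the median and 1104 in the highest Ctrlm kidney, and 885, 1019 and 1331 CPM in cKOm. Every cKOm kidney was above the median of Ctrlm, and the groups overlapped through Ctrlm kidney 6 alone, whose 1104 CPM lay above 4 of the 6 cKOm kidneys. The means were 670 ± 223 and 1080 ± 168 CPM (SD, n = 6), a 1.61-fold rise (log2 fold change 0.69, 95% interval 0.41 to 0.97, SE 0.14, edgeR adjusted p = 0.00178). A two-sided exact permutation test of the CPM means gave p = 0.0108.

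In females the Spp1 level was 1317, 1448 and 1514 CPM (lowest, median, highest) in Ctrlf and 1453, 1599 and 1883 CPM in cKOf. Of the 6 cKOf kidneys, 5 were above all Ctrlf kidneys. The log2 fold change was 0.19 (95% interval -0.09 to 0.47, SE 0.14, edgeR adjusted p = 0.573), while the two-sided exact permutation test of the means, 1433 ± 78.6 and 1629 ± 158 CPM, gave p = 0.0173. The male log2 fold change exceeded the female one by 0.50 (95% interval 0.11 to 0.90), which was not past the adjusted threshold (edgeR test of the interaction, unadjusted p = 0.0146, adjusted p = 0.216).

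The male call on Spp1 was lost in a fit without the 5 kidneys rich in hepatocyte transcripts, which left 2 Ctrlm kidneys. Without those 5 kidneys, the Ctrlm group came down to kidneys 5 and 6, at 626 and 1104 CPM, and the remaining 5 cKOm kidneys ranged from 885 to 1331 CPM. The log2 fold change was then 0.31 and no longer passed (edgeR adjusted p = 0.459). With the hepatocyte score as a covariate over all 24 kidneys the call was kept, and it was kept with each of the 24 kidneys left out in turn, at log2 fold changes from 0.62 to 0.86. The summed level of thick limb markers was also higher in cKOm, carried by some of its genes. The sum over 6 thick limb markers was 6336 to 7297 CPM in cKOm against 5004.5 to 6207 CPM in Ctrlm, with Slc12a1, the Na-K-2Cl cotransporter NKCC2, higher in cKOm (log2 fold change 0.33, edgeR adjusted p = 0.0116), as was Egf, the growth factor precursor of this segment (0.33, edgeR adjusted p = 0.00388). The other 4 did not pass, at 0.19 for Kcnj1, 0.12 for Umod, -0.07 for Cldn16 and -0.10 for Cldn10. The sum over 10 proximal tubule markers was 11579 to 12684 CPM in cKOm against 13844 to 16192 CPM in Ctrlm, also carried by some of its genes. Of these 10, 5 were called lower (Slc27a2, Slc22a6, Slc34a1, Aqp1 and Lrp2) and 0 higher. Of all tested genes 4.9% were called lower and 4.14% higher in males. The others were at 0.63 for Slc5a12 (edgeR adjusted p = 0.0512), 0.10 for Slc22a8, 0.10 for Slc5a2, 0.04 for Miox and -0.17 for Cubn. The part of these segments in the Spp1 difference was not tested. A transcript on the same strand, Gm42793, shares 18.75% of the exon bases of Spp1 and had 1399 counts over 24 kidneys, against 640935 for Spp1.

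**Figure D2:**
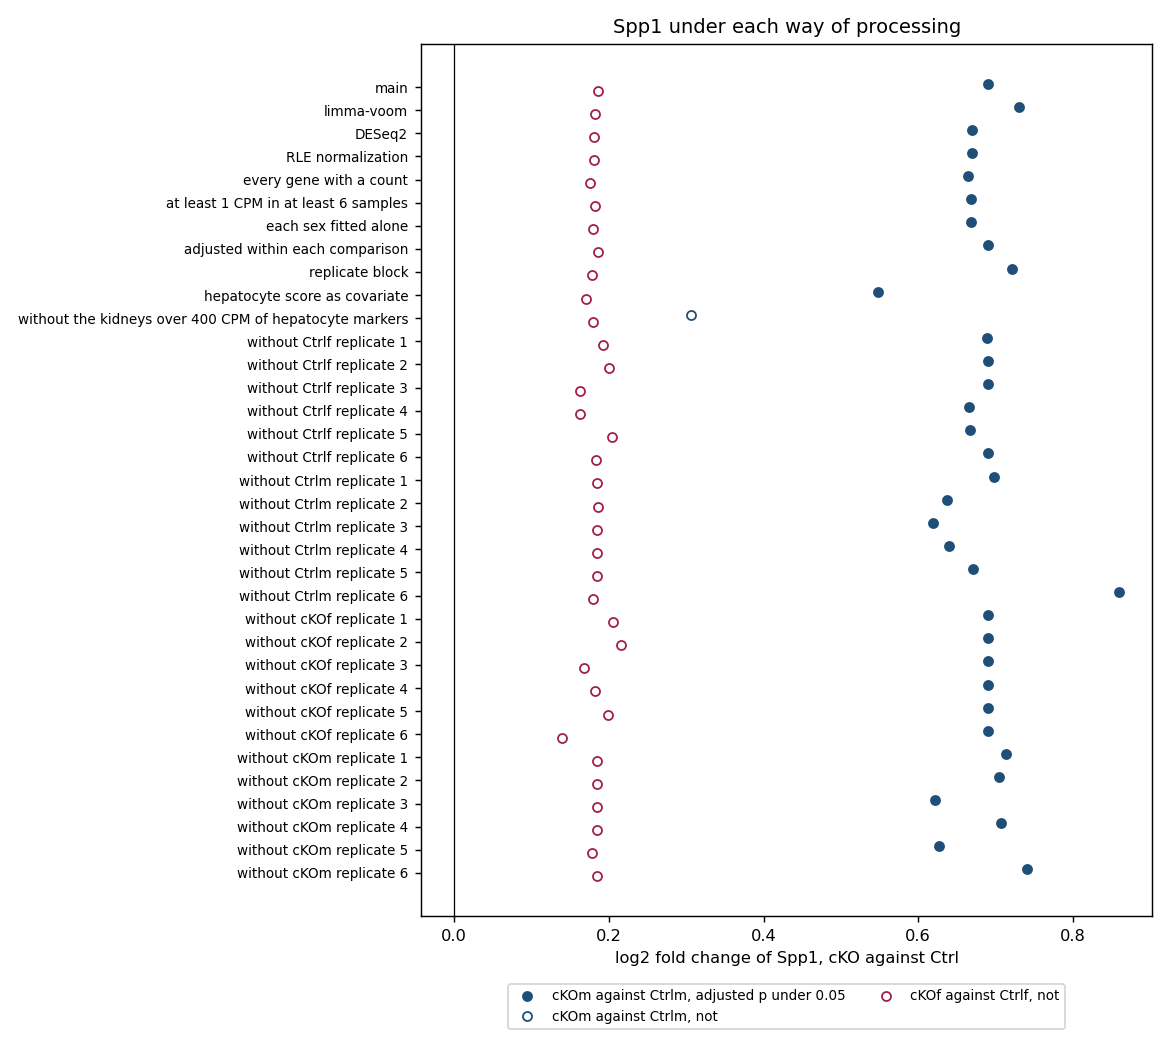
Log2 fold change of Spp1 (linear axis) between cKO and Ctrl mice in males (blue) and females (red) under each way of processing and with each kidney left out, filled where the adjusted p was under 0.05. Male values run from 0.31, without the hepatocyte-rich kidneys and not called, to 0.86, without Ctrlm kidney 6, and female values stay between 0.14 and 0.22 with no call.

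Clu encodes a secreted chaperone that coats misfolded proteins and cell debris, and lies on chromosome 14 of GRCm38 (65968483 to 65981547). It was 145, 174 and 237 CPM (lowest, median, highest) in Ctrlm and 182, 237 and 284 CPM in cKOm. All 6 cKOm kidneys were above the Ctrlm median and 3 were above all Ctrlm kidneys. The means, 185 ± 37.6 and 241 ± 37.5 CPM (SD, n = 6), differed by 0.39 on the log2 scale (95% interval 0.12 to 0.65), which missed the adjusted threshold (edgeR unadjusted p = 0.00602, adjusted p = 0.0899). The two-sided exact permutation test gave p = 0.0216. Without Ctrlm kidney 1, which had the highest Clu of its group, the log2 fold change was 0.47 and passed (edgeR adjusted p = 0.0356), and without the 5 hepatocyte-rich kidneys it was 0.22 (edgeR adjusted p = 0.656). In females Clu was 231, 260 and 338 CPM in Ctrlf and 255, 269 and 392 CPM in cKOf. Of the 6 cKOf kidneys 5 lay within the range of Ctrlf (log2 fold change 0.12, 95% interval -0.15 to 0.38, edgeR adjusted p = 0.743).

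Havcr1 encodes KIM-1, a receptor for phosphatidylserine through which injured proximal tubule cells engulf dead neighbours. It lies on chromosome 11 (46735080 to 46779578). Its level was 1.64, 2.09 and 5.496 CPM (lowest, median, highest) in Ctrlm and 0.401, 0.944 and 3.01 CPM in cKOm, that is, between 9 and 111 reads per kidney. Of the 6 cKOm kidneys, 5 were below every Ctrlm kidney, and kidney 3 at 3.01 CPM was the exception. The log2 fold change was -1.35 (95% interval -2.54 to -0.15, SE 0.58, edgeR unadjusted p = 0.0292, adjusted p = 0.234), and a two-sided exact permutation test of 3.05 ± 1.77 against 1.20 ± 0.915 CPM (SD, n = 6) gave p = 0.0433. Without the hepatocyte-rich kidneys the value was -1.60 (edgeR adjusted p = 0.422). In females it was 0.193, 1.45 and 4.99 CPM in Ctrlf and 0.180, 0.958 and 2.07 CPM in cKOf. Of the 6 cKOf kidneys 4 lay within the range of Ctrlf and 2 below it (log2 fold change -1.16, 95% interval -2.37 to 0.05, edgeR adjusted p = 0.346, two-sided exact permutation p = 0.195).

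Lcn2 encodes a lipocalin that binds bacterial siderophores and is secreted by distal tubules and neutrophils. It lies on chromosome 2 (32384633 to 32388252). Its level was 0.922, 1.61 and 3.56 CPM (lowest, median, highest) in Ctrlm, 0.868, 1.43 and 2.11 CPM in cKOm, 1.09, 2.37 and 4.72 CPM in Ctrlf and 0.785, 1.66 and 3.74 CPM in cKOf. The highest kidney of each sex was a control. Between genotypes the log2 fold change was -0.36 in males (95% interval -1.20 to 0.47, edgeR adjusted p = 0.752) and -0.42 in females (95% interval -1.24 to 0.40, edgeR adjusted p = 0.693). The male value was -1.12 without the hepatocyte-rich kidneys (edgeR adjusted p = 0.392). Neutrophil transcripts were close to the detection limit, with a sum over 10 markers between 0.290 and 2.19 CPM per kidney. The kidney with the most of them in Ctrlm, cKOm and cKOf (kidneys 6, 3 and 6) was also the one with the most Lcn2 in its group, and in Ctrlf it was not. The part of neutrophils was not tested.

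Vcam1, an adhesion molecule that binds leukocyte integrins and is kept by proximal tubule cells that fail to repair, lies on chromosome 3 (116109949 to 116129688). In Ctrlm it was 15.6, 17.97 and 22.6 CPM (lowest, median, highest) and in cKOm 12.1, 14.6 and 18.8 CPM. Of the cKOm kidneys 5 were below all Ctrlm kidneys. Vcam1 had a log2 fold change of -0.36 (95% interval -0.75 to 0.02, edgeR adjusted p = 0.348), and the two-sided exact permutation test of 18.9 ± 2.98 against 14.7 ± 2.46 CPM gave p = 0.0281. Without the hepatocyte-rich kidneys the male value was -0.27 (edgeR adjusted p = 0.767). In Ctrlf it was 16.4, 20.02 and 42.7 CPM and in cKOf 13.3, 17.4 and 24.1 CPM. The female log2 fold change was -0.40 (95% interval -0.78 to -0.02, edgeR unadjusted p = 0.0388, adjusted p = 0.274, two-sided exact permutation p = 0.201) and leaned on Ctrlf kidney 1, since it was -0.14 without that kidney.

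Endothelium and macrophages also make Vcam1, and marker sums of immune cells ran alongside it. The sum over 9 macrophage markers was 121 to 194 CPM in Ctrlm and 94.4 to 132 CPM in cKOm, with a median log2 fold change of -0.46. Of these 9, only Csf1r, the receptor for macrophage growth factor, was called, and it was lower in cKOm (log2 fold change -0.34, edgeR adjusted p = 0.0399). Of all tested genes 9.05% were called in males. Ctrlf kidney 1 had 269 CPM of macrophage markers against at most 155 in the other Ctrlf kidneys, 1093 CPM of 14 interferon-stimulated genes against at most 315, and 24.4 CPM of 10 lymphocyte markers against at most 10.7. It was thus the control kidney of highest Vcam1 and of highest immune transcripts. The sum over 9 endothelial markers was 498 to 620 CPM in Ctrlm and 494 to 565 CPM in cKOm. The part of any of these cells in the Vcam1 difference was not tested.

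**Figure D3:**
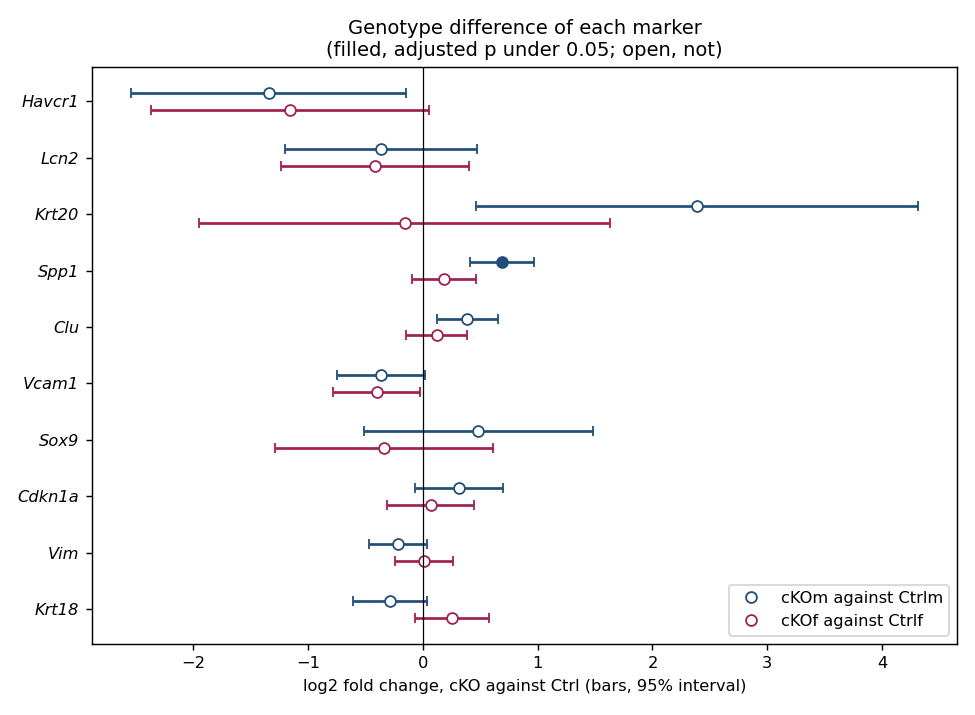
Log2 fold change of each marker, cKO against Ctrl (linear axis), with the 95% interval from edgeR, in males (blue) and females (red). Spp1 in males, at 0.69, is the single filled point with an adjusted p under 0.05, and Havcr1, at -1.35 and -1.16, is the marker furthest below 0 in both sexes.

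Krt20 encodes an intermediate filament protein of urothelium and gut that appears in severely injured proximal tubules. It lies on chromosome 11 (99428403 to 99438150). It was at 0, 0.113 and 0.297 CPM (lowest, median, highest) in Ctrlm and 0, 0.461 and 2.03 CPM in cKOm. These are 0 to 6 reads per Ctrlm kidney and 0 to 52 per cKOm kidney, and 3 Ctrlm kidneys and 1 cKOm kidney had 3 reads or fewer. The log2 fold change was 2.39 (95% interval 0.46 to 4.31, SE 0.94) and missed the threshold (edgeR unadjusted p = 0.0172, adjusted p = 0.172, two-sided exact permutation test p = 0.0606), with 3 of 6 cKOm kidneys above every Ctrlm kidney. The 2 kidneys that reached 1 CPM after TMM scaling were both cKOm. Ctrlf kidney 1, with 21 Krt20 reads among 20454515, also passed the filter on its unscaled total. On so few reads this difference is a description and not evidence of a rise. Without the hepatocyte-rich kidneys it was 3.24 (edgeR adjusted p = 0.447). In females Krt20 was 0.0431, 0.185 and 0.999 CPM in Ctrlf and 0, 0.228 and 0.887 CPM in cKOf, with coinciding ranges (log2 fold change -0.16, 95% interval -1.95 to 1.63, edgeR adjusted p = 0.962). At these counts a moderate difference was not detectable.

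Krt18, a keratin of simple epithelia found in collecting duct and urothelium and taken up by injured tubules, lies on chromosome 15 (102028180 to 102032027). It was 12.1, 15.3 and 19.5 CPM (lowest, median, highest) in Ctrlm and 9.09, 12.3 and 15.97 CPM in cKOm, with 3 cKOm kidneys below all Ctrlm. In Ctrlf it was 10.3, 12.8 and 20.2 CPM and in cKOf 13.03, 16.4 and 19.8 CPM, with all 6 cKOf kidneys above the Ctrlf median. The point estimates had opposite signs, -0.29 in males (95% interval -0.61 to 0.04, edgeR adjusted p = 0.399) and 0.25 in females (95% interval -0.07 to 0.57, edgeR adjusted p = 0.471). The difference between them was -0.54 (95% interval -0.99 to -0.08) and did not pass after adjustment (edgeR test of the interaction, unadjusted p = 0.0224, adjusted p = 0.269). Without the hepatocyte-rich kidneys the male value was -0.53 (edgeR adjusted p = 0.335). The kidneys with the most urothelial markers in the female groups, Ctrlf 6 with 45.5 CPM over 9 genes and cKOf 2 with 41.9 CPM, against at most 30.1 CPM in the other female kidneys, were the highest of their groups in Krt18. In males the urothelial sum was 17.4 to 28.8 CPM in Ctrlm and 14.3 to 29.6 CPM in cKOm, with the most in kidney 6 of each group. Krt18 was highest in kidney 6 of cKOm as well, but in kidney 5 of Ctrlm. The part of urothelium in the Krt18 values was not tested.

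Vim encodes vimentin, the intermediate filament of mesenchymal cells that spreading tubule cells also make, and lies on chromosome 2 (13573927 to 13582826). It was 27.4, 29.7 and 32.5 CPM (lowest, median, highest) in Ctrlm and 21.8, 26.0 and 29.3 CPM in cKOm. All cKOm kidneys were below the Ctrlm median and 4 were below every Ctrlm kidney. Vim had a log2 fold change of -0.21 (95% interval -0.47 to 0.04, edgeR adjusted p = 0.425), and the two-sided exact permutation test of 29.9 ± 1.72 against 25.7 ± 3.05 CPM gave p = 0.0173. Without the hepatocyte-rich kidneys the value was -0.25 (edgeR adjusted p = 0.634). Stromal markers ran alongside, with a sum over 10 genes of 329 to 443 CPM in Ctrlm and 300.1 to 394 CPM in cKOm, and their part in the difference was not tested. In females Vim was 29.1, 36.8 and 42.5 CPM in Ctrlf and 28.1, 34.4 and 53.7 CPM in cKOf, with a log2 fold change of 0.01 (95% interval -0.24 to 0.26, edgeR adjusted p = 0.987).

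Sox9, a transcription factor that starts the regenerative programme of surviving tubule cells, lies on chromosome 11 (112782224 to 112787760). It was 0.132, 0.331 and 1.24 CPM (lowest, median, highest) in Ctrlm, 0.134, 0.779 and 1.07 CPM in cKOm, 0.383, 0.982 and 1.82 CPM in Ctrlf and 0.558, 0.732 and 1.36 CPM in cKOf. All cKO kidneys lay within the range of their controls in both sexes. Between genotypes Sox9 differed by 0.48 on the log2 scale in males (95% interval -0.52 to 1.48, edgeR adjusted p = 0.716), which turned to -0.48 without the 5 hepatocyte-rich kidneys, and -0.34 in females (95% interval -1.29 to 0.61, edgeR adjusted p = 0.801).

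Cdkn1a encodes p21, the cyclin-dependent kinase inhibitor induced by p53, and lies on chromosome 17 (29090976 to 29100727). It was 4.39, 5.39 and 7.33 CPM (lowest, median, highest) in Ctrlm and 5.57, 6.70 and 8.36 CPM in cKOm, with all 6 cKOm kidneys above the Ctrlm median and 2 above every Ctrlm kidney. In males the log2 fold change was 0.31 (95% interval -0.07 to 0.69, edgeR adjusted p = 0.445, two-sided exact permutation test p = 0.0519), and 0.42 without the hepatocyte-rich kidneys (edgeR adjusted p = 0.582). In females it was 4.25, 7.51 and 9.76 CPM in Ctrlf and 5.46, 8.36 and 9.93 CPM in cKOf, a log2 fold change of 0.07 (95% interval -0.31 to 0.44, edgeR adjusted p = 0.919).

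The genotype differences of males and females were then compared with each other. Since the paper reports a less complete loss of PEX5 in cKOf, sex and extent of deletion cannot be told apart here. By the interaction of genotype and sex (the male log2 fold change minus the female one) 0 of 10 members were called by edgeR, limma-voom or DESeq2. An unadjusted edgeR p under 0.05 was held by 2 of 10 (Spp1 and Krt18). Of all tested genes 2.31% were called, 0.82% with a positive and 1.49% with a negative term, and 13.4% had such a p. Without Ctrlm kidney 6 the Spp1 difference between the sexes was 0.68 and was called (edgeR adjusted p = 0.00370), and without the 5 hepatocyte-rich kidneys it was 0.13 (edgeR adjusted p = 0.814).

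The levels of control males and control females are given next. They share the Ctrlm and Ctrlf mice with the genotype comparisons and are no independent check of them. Between Ctrlm and Ctrlf 2 of 10 members were called, both lower in males, where 16.8% of all tested genes were called, 8.71% higher and 8.11% lower. Spp1 was 670 ± 223 CPM in Ctrlm and 1433 ± 78.6 in Ctrlf (log2 difference -1.10, SE 0.14, edgeR adjusted p = 9.3e-07). No Ctrlm kidney reached the lowest Ctrlf kidney, which made Spp1 the 1 member of 10 without overlap, against 7.34% of all tested genes (p = 0.00216 by a two-sided exact permutation, the minimum possible for groups of 6). Clu was 185 ± 37.6 CPM in Ctrlm and 270 ± 36.6 in Ctrlf (log2 difference -0.55, SE 0.13, edgeR adjusted p = 0.00330), with 5 of 6 Ctrlm kidneys below all Ctrlf kidneys. Without the 5 hepatocyte-rich kidneys the Spp1 difference was -0.71 and still passed (edgeR adjusted p = 0.00765), while that of Clu was -0.44 and did not (edgeR adjusted p = 0.125).

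For Spp1 the 4 group means had the order Ctrlm, cKOm, Ctrlf and cKOf, and Clu had the same order, at 185, 241, 270 and 293 CPM. Neighbouring groups in this order overlapped for both genes. The other 8 members did not pass between Ctrlm and Ctrlf, with the closest being Cdkn1a (log2 difference -0.45, edgeR adjusted p = 0.104), Sox9 (-1.13, edgeR adjusted p = 0.115) and Vim (-0.27, edgeR adjusted p = 0.139). Each of these passed once a kidney was left out, Cdkn1a without Ctrlf 3 (-0.56, edgeR adjusted p = 0.0250), Sox9 without Ctrlm 6 (-1.66, edgeR adjusted p = 0.0162) and Vim without cKOf 6 (-0.27, edgeR adjusted p = 0.0489). The median over the members was -0.45, against -0.03 over all tested genes.

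The spread between kidneys of a group was uneven. Ctrlm kidney 6 was above its group mean (log2 CPM) in 9 of 10 markers and highest of its group in Lcn2, Spp1, Sox9 and Vim. In cKOm, kidney 3 was above the mean in 9 markers and highest in Havcr1, Lcn2, Spp1, Clu and Vcam1. In cKOf, kidney 6 was above the mean in 9 markers and highest in 6, namely those 5 and Vim. At the other end, Ctrlf kidney 3 was above its group mean in 0 markers, and cKOm kidney 5 was the lowest of its group in Havcr1, Krt20, Clu, Vcam1 and Sox9. Single kidneys with several raised markers thus occurred in controls and in cKO mice.

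**Figure D4:**
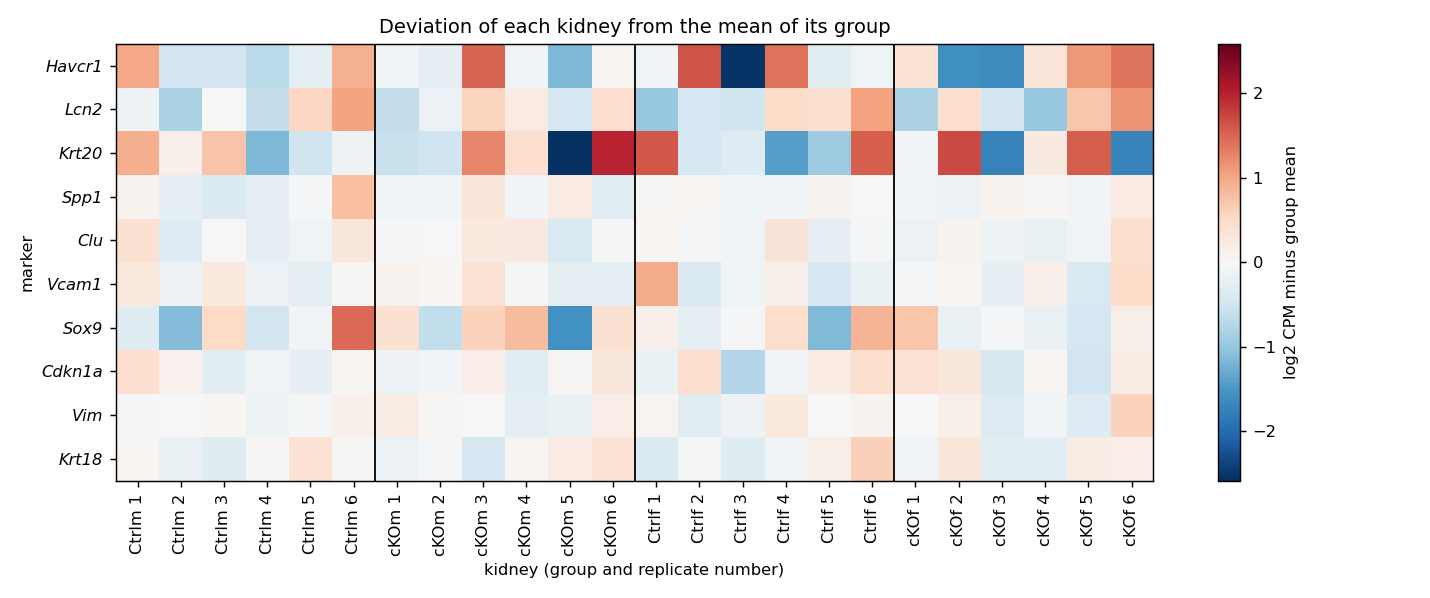
Deviation of each kidney from the mean of its own group in log2 CPM (colour, red above and blue below) for the 10 markers. Columns that are red over most markers are Ctrlm 6, cKOm 3 and cKOf 6, each above its group mean in 9 of 10 markers.

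Across all 24 kidneys, after subtraction of the group means, the 45 pairs of markers had a median Pearson r of 0.23, and 39 were positive. With 100000 resamples, 0 of the 45 had a permutation p for r under 0.05 after Benjamini-Hochberg adjustment. The highest was Lcn2 with Krt18 (r = 0.60, rho = 0.57, permutation p = 0.00440 and 0.00683, adjusted p = 0.0695 and 0.136, r = 0.63 without the 2 kidneys farthest from the median of Lcn2). Clu with Vcam1 had r = 0.55 (permutation p = 0.00471, adjusted p = 0.0695) and rho = 0.68 (permutation p = 0.000430, adjusted p = 0.0193), with r = 0.45 without the 2 farthest kidneys. These kidneys share their libraries' depth and scaling, and no pair is taken as more than weak.

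Among 14070 genes with a mean of at least 1 CPM, those whose deviations were most like each marker are given as a description over the 24 kidneys. For Spp1 they were Calb1, the calcium-binding protein of the distal convoluted and connecting tubule (r = 0.84), Bcar3 (0.81) and Slc39a5 (0.76). For Vcam1 they were Grap2 (0.87), Wdfy4 (0.85) and Ctss, a lysosomal protease of antigen-presenting cells (0.84). For Krt18 they were Psca (0.83), Cryab (0.76) and Emcn (0.75), of which Psca is one of the urothelial markers and Emcn one of the endothelial markers. For Havcr1 they were Dusp23 (0.79), Col1a1, a fibrillar collagen chain (0.74), and Tmem176b (0.73), and for Clu Ube2m (0.86), Pkm (0.85) and Pgam2 (0.85), the last pair being enzymes of glycolysis. For Lcn2 they were Dmap1 (0.77), Krt7 (0.73) and Yipf3 (0.73), for Vim Gmppa (0.84), Bcat2 (0.76) and Dynlt1f (0.75), and for Sox9 Lpcat4 (0.74), Rhobtb2 (0.73) and Slc44a3 (0.72). Krt20 and Cdkn1a had the lowest likenesses, led by Naip5 (0.73) and Ipo13 (0.65). Without the 2 kidneys in which the marker was farthest from its group mean, r fell to 0.48 for Vim with Bcat2, 0.59 for Vim with Dynlt1f, 0.57 for Spp1 with Slc39a5, 0.59 and 0.58 for Sox9 with Lpcat4 and Slc44a3, and 0.56 for Cdkn1a with Ipo13, and was at least 0.667 for the other pairs named.

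A wider list of 40 tubular injury and failed repair genes was read beside the markers. Of its 37 tested genes 3 were called in males, 2 higher and 1 lower, with a median log2 fold change of -0.07, and 12 had an unadjusted p under 0.05, beside 9.05% and 25.1% of all tested genes. Cdh6, a cadherin of the developing nephron that returns in damaged proximal tubules, was 16.95 ± 1.47 CPM in cKOm and 9.16 ± 1.35 in Ctrlm (log2 fold change 0.89, SE 0.12, edgeR adjusted p = 1.1e-05). The lowest cKOm kidney had 14.99 CPM and the highest Ctrlm kidney 10.6 CPM, so the groups did not overlap. Cp, which encodes the copper-carrying ferroxidase ceruloplasmin, was 117.7 ± 28.3 CPM in cKOm and 70.4 ± 11.2 in Ctrlm (log2 fold change 0.74, SE 0.16, edgeR adjusted p = 0.00345), with cKOm kidneys from 91.4 CPM upward and Ctrlm kidneys up to 79.4 CPM. Il34, a macrophage growth factor made by tubule cells, was lower, at 5.10 ± 0.822 CPM in cKOm and 9.16 ± 2.95 in Ctrlm (log2 fold change -0.84, SE 0.19, edgeR adjusted p = 0.00683), and these groups overlapped. Without the 5 hepatocyte-rich kidneys Cdh6 was still called, while Cp (0.84, edgeR adjusted p = 0.105) and Il34 (-0.87, edgeR adjusted p = 0.151) were not. Without Ctrlm kidney 2 the calls were 5, with Hbegf and Prom1, and without Ctrlm kidney 6 they were 5, with Ccl2 and Prom1. Between Ctrlm and Ctrlf, a comparison that shares the Ctrlm mice, the log2 difference was -2.19 for Cdh6, -0.75 for Cp and 1.20 for Il34.

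In females 0 of the 37 genes were called by edgeR, limma-voom or DESeq2, 2 had an unadjusted edgeR p under 0.05, and the median log2 fold change was -0.02. Of all tested genes edgeR called 0.851% in females, and 6.73% had such a p. The male log2 fold change exceeded the female one for Cp by 0.99 (interaction term of edgeR, adjusted p = 0.0112) and for Cdh6 by 0.79 (adjusted p = 0.00522). The female value was -0.25 for Cp (edgeR adjusted p = 0.481), opposite in sign to the male one, and 0.10 for Cdh6 (edgeR adjusted p = 0.751).

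**Figure D5:**
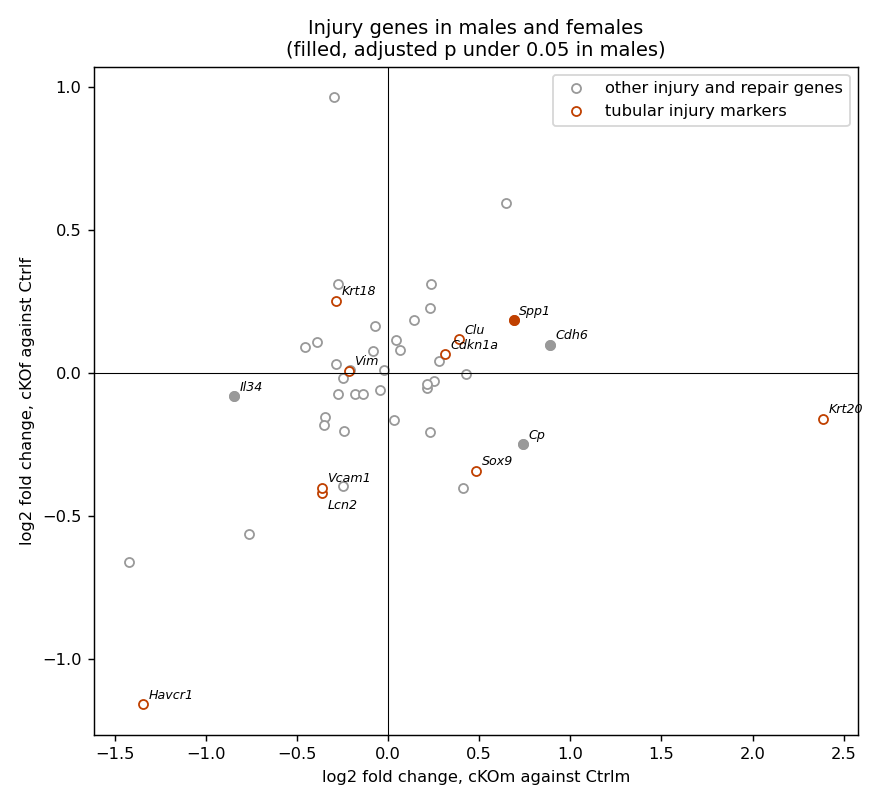
Log2 fold change in males (horizontal) against females (vertical), cKO against Ctrl, for the 10 tubular injury markers (orange) and the 37 tested genes of the wider injury list (grey), filled where called in males. Filled points are Spp1, Cdh6 and Cp at the right and Il34 at the left, and none of these 4 was called in females.

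The programmes that surround injury were read from 3 further lists. Of all tested genes edgeR called 9.05% in males and 0.851% in females, and 25.1% and 6.73% had an unadjusted p under 0.05. Of 17 tested p53 targets, which include genes of arrest and apoptosis, edgeR called 0 in males and 0 in females, with 3 and 3 at an unadjusted p under 0.05 and medians of 0.02 and -0.04. DESeq2 called 1 in males, Ddit4l, and limma-voom 0, and both called 0 in females. With a kidney left out edgeR called 1 in males without Ctrlf 5 or Ctrlm 3 (Ddit4l) or cKOm 1 (Bbc3), and 1 in females without Ctrlf 4 (Plk2) or cKOf 6 (Sesn2). Of 15 proliferation genes 2 were called in males, in opposite directions, beside 9.05% of all tested genes. Mcm2, a subunit of the replicative helicase, had a log2 fold change of -0.35 (edgeR adjusted p = 0.0378), and Tyms, thymidylate synthase, one of 0.41 (edgeR adjusted p = 0.0366). Neither call was kept in a fit of each sex alone. With a kidney left out, Mcm2 was lost without Ctrlm 1, 2 or 3 or cKOm 1, 3 or 4 (edgeR adjusted p up to 0.105), and Tyms without Ctrlm 2, 3 or 5 or cKOm 1, 2, 3 or 5 (edgeR adjusted p up to 0.101). The median was -0.25 in males and 0.09 in females, where 0 were called by the 3 tools and 2 had an unadjusted p under 0.05. Of 12 tested acute phase and NF-kB genes edgeR called 0 in either sex, with 3 in males and 1 in females at an unadjusted p under 0.05, medians of 0.05 and -0.15, and 1 call by limma-voom in males (Orm1, a plasma protein of hepatocytes) and 0 by DESeq2.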

How the data were processed

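Whole kidney RNA (TruSeq Stranded mRNA) was sequenced from 24 mice. The authors deposited raw read counts per gene, unnormalized, 1 file per kidney. The submitters' processing notes name cutadapt 1.8, STAR 2.5.3a, HTSeq 0.9.1 and GRCm38, and the strand setting of the counting is not given in the sources used here. The 5 closing lines of reads not on a gene (34.0 to 41.5% per kidney) were set aside. Names and positions came from GENCODE for GRCm38, with 55154 of 55335 genes matched.

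Genes reaching 1 CPM in 1 or more kidneys entered tests with edgeR 4.0.16 (R 4.3.3): TMM, 1 model of 4 groups, quasi-likelihood F tests, Benjamini-Hochberg over both sexes together for genotype and over all genes otherwise, threshold 0.05. Single levels were compared by two-sided exact permutation over 924 arrangements. The procedure was tested on simulated data. Kidneys of a group differed by more than sampling noise, and p-values measure the spread between mice.

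The members and gene lists were chosen with earlier results of these data known. All members, and genes past the threshold in the injury, p53, proliferation and acute phase lists (at most 8 per list and sex), are named, with the 3 genes most like each member. Other named genes were chosen after their values were seen. Alternatives were limma-voom 3.58.1, DESeq2 1.42.0, RLE, other filters, each sex alone, adjustment within a comparison, replicate block, hepatocyte score, and each kidney left out. Leaving out the kidneys over 400 CPM of hepatocyte markers was chosen after seeing the data.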

Additional observations from a re-analysis of the deposited data

Results flagged for a closer look

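Each of the 10 markers was checked for a kidney far from the other 5 of its group by Dixon's ratio (limit 0.625 for 6 samples), and 3 of 40 groups of kidneys held one, where chance gives about 1 in 20. Havcr1 was 3.01 CPM in cKOm kidney 3, with the next kidney at 1.05 CPM. Spp1 was 1104 CPM in Ctrlm kidney 6, with the next at 689 CPM. Vcam1 was 42.7 CPM in Ctrlf kidney 1, with the next at 24.3 CPM, and this kidney also had the most macrophage, lymphocyte and interferon-stimulated transcripts of its group. Of the markers and the wider injury list, 2 genes had a genotype difference that itself differed between males and females (interaction term of edgeR). They were Cp, by 0.99 on the log2 scale (adjusted p = 0.0112), and Cdh6, by 0.79 (adjusted p = 0.00522), with the male value the higher in both cases. For Cp the male and female values had opposite signs. None of these 5 was followed by a test of a cause.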

How the results depend on the processing

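The number of markers called in males, 1, was 0 without the 5 kidneys over 400 CPM of hepatocyte markers and 1 to 2 with a kidney left out (Clu joined without Ctrlm 1). For the interaction it was 0 to 1 with a kidney left out, and for Ctrlm against Ctrlf it was 1 without the hepatocyte-rich kidneys. The male count of the wider injury list, 3, was 5 by DESeq2, 5 with adjustment within the comparison, 1 without the hepatocyte-rich kidneys and 3 to 5 with a kidney left out. For p53 targets it was 1 in males by DESeq2 and 1 with adjustment within the comparison, and 0 to 1 in each sex with a kidney left out. The 2 proliferation calls became 0 with every gene with a count, each sex fitted alone, the replicate block, the hepatocyte covariate or without the hepatocyte-rich kidneys, and 0 to 2 with a kidney left out. Of acute phase genes limma-voom called 1 in males.

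Where edgeR's unadjusted p and the exact permutation p fell on different sides of 0.05, the edgeR value was 0.0172 for Krt20, 0.0605 for Vcam1 and 0.0933 for Vim in males, 0.186 for Spp1 and 0.0388 for Vcam1 in females, and 0.0262 for Sox9 and 0.0230 for Cdkn1a between the controls.

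Signs turned for differences near 0 or of low counts. With the replicate block they were 0.36 for Krt20 and -0.014 for Vim in females and -0.00484 for the Vcam1 interaction; with limma-voom -0.023 for Vim in females and -0.032 for the Vcam1 interaction; with every gene with a count -0.000174 for Vim in females; with the hepatocyte covariate 0.025 for the Havcr1 interaction. Without the hepatocyte-rich kidneys they were -0.48 for Sox9 in males, -0.14 for the Sox9 interaction, -0.70 for the Lcn2 interaction and 0.27 for Lcn2 between the controls. With a kidney left out the ranges that crossed 0 were -0.69 to 0.14 (Havcr1), -0.21 to 0.36 (Lcn2) and -0.22 to 0.14 (Vcam1) for the interaction, and -0.64 to 0.32 (Krt20), -0.052 to 0.15 (Cdkn1a) and -0.14 to 0.072 (Vim) in females. The causes were not tested.

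Replicate numbers did not pair the kidneys (r of deviations from -0.20 to 0.12 over 36 pairs), and the replicate block left the marker counts at 1 in males and 0 in females. Krt20 was not tested with a filter of at least 1 CPM in 6 kidneys. Depth limits Krt20, Sox9, Havcr1 and Lcn2.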
